A study of Mus musculus with 8 samples.

Results

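The genes described here carry nucleosides across membranes, produce or remove adenosine, or sense it at the cell surface. They are the concentrative nucleoside transporters *Slc28a1*, *Slc28a2* and *Slc28a3*, the equilibrative nucleoside transporters *Slc29a1*, *Slc29a2* and *Slc29a3*, adenosine kinase (*Adk*), ecto-5′-nucleotidase (*Nt5e*), and the adenosine receptors *Adora1* and *Adora2a*. All probes bearing 1 of these symbols in the deposited expression table were taken, which gave 19 probes of 10 genes among 56605 probes and 26894 named genes. The genes were chosen by their function with the measured difference between βUCP2Tg and WT signals already known, so that their differences are given as a description and carry no p-value.

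RNA came from pancreatic islets of male mice aged 8 to 12 weeks, 4 samples from βUCP2Tg mice and 4 from their WT littermates. The βUCP2Tg line carries a *Ucp2* transgene, coding for an uncoupling protein of mitochondria, that a rat insulin promoter drives in β-cells. It was backcrossed to C57BL6/J, and WT mice lack the transgene. Isolated islets of both groups were kept for 8 h in medium with 200 mg/dL glucose before RNA extraction. Each RNA was labelled with Cy3 and hybridised to its own one-colour Agilent mouse array. The sources used here do not say how many mice contributed to a sample, so that n, SD and standard errors refer to samples and may in part reflect technical spread.

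Nucleosides are polar and do not pass lipid membranes without carriers. SLC28 proteins couple uptake to the sodium gradient and can concentrate nucleosides inside the cell, whereas SLC29 proteins let them pass in either direction down their gradient. Adenosine outside cells arises largely from released ATP, which ectonucleotidases degrade, and the last step from AMP is made by the product of *Nt5e*, also known as CD73. It acts on G protein-coupled receptors until it is taken up again, and adenosine kinase then returns it to AMP.

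All values below are normalized log2 signals, meaning log2 of the background-subtracted intensity minus the 75th percentile of the same array, so that 0 is the level of that percentile. A probe was compared between the groups when 4 or more of the 8 arrays showed it well above background, and it was called when limma's adjusted p was under 0.05 and the fold change over 1.5. By this rule 145 of 35363 probes were called, or 0.41%, 73 in the higher and 72 in the lower direction. At an unadjusted p under 0.05 there were 8922 probes. The arrays followed their labels in the transgene's own gene, since the *Ucp2* probe A_51_P297105 stood at 7.38 ± 0.31 in βUCP2Tg islets and 1.15 ± 0.23 in WT islets (SD, n = 4 each; log2 fold change 6.24 ± 0.18 SE, limma adjusted p = 9.32e-06). A further *Ucp2* probe, A_52_P90265, had groups that did not overlap but was not called (0.44 ± 0.12 SE, limma adjusted p = 0.0987). Summed signal of 10 β-cell genes was 1191 to 1585 times the 75th percentile in βUCP2Tg islets and 1516 to 1575 times in WT islets, and all 10 were well above background on all 8 arrays. A pair of arrays stood apart from their groups in the summed signal of hypoxia response genes, namely WT replicate 1 and βUCP2Tg replicate 4. All 8 arrays shared a slide on which each genotype had its own row, so that row and genotype cannot be told apart.

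Of the 19 probes, 11 probes of 9 genes were measured well enough to be compared, and the other 8 were well above background on no array. *Nt5e* had no probe among the 11. A single probe was called, that of *Slc28a2*, which was lower in βUCP2Tg islets, against 0.204% of all compared probes called lower and 0.206% called higher. Groups did not overlap for 2 of the 11 probes, those of *Slc28a2* and *Slc29a2*, the first lower and the second higher in βUCP2Tg islets. Of all compared probes, 12.4% had groups that did not overlap, 7.17% with βUCP2Tg islets lower and 5.25% with βUCP2Tg islets higher. With 1 probe per gene, the brightest, 6 genes had a higher mean and 3 a lower mean in βUCP2Tg islets, beside 9648 of 17860 genes with a higher mean on the whole array. In bulk islet RNA, fewer cells of a type and less RNA per cell cannot be told apart.

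**Figure D1:**
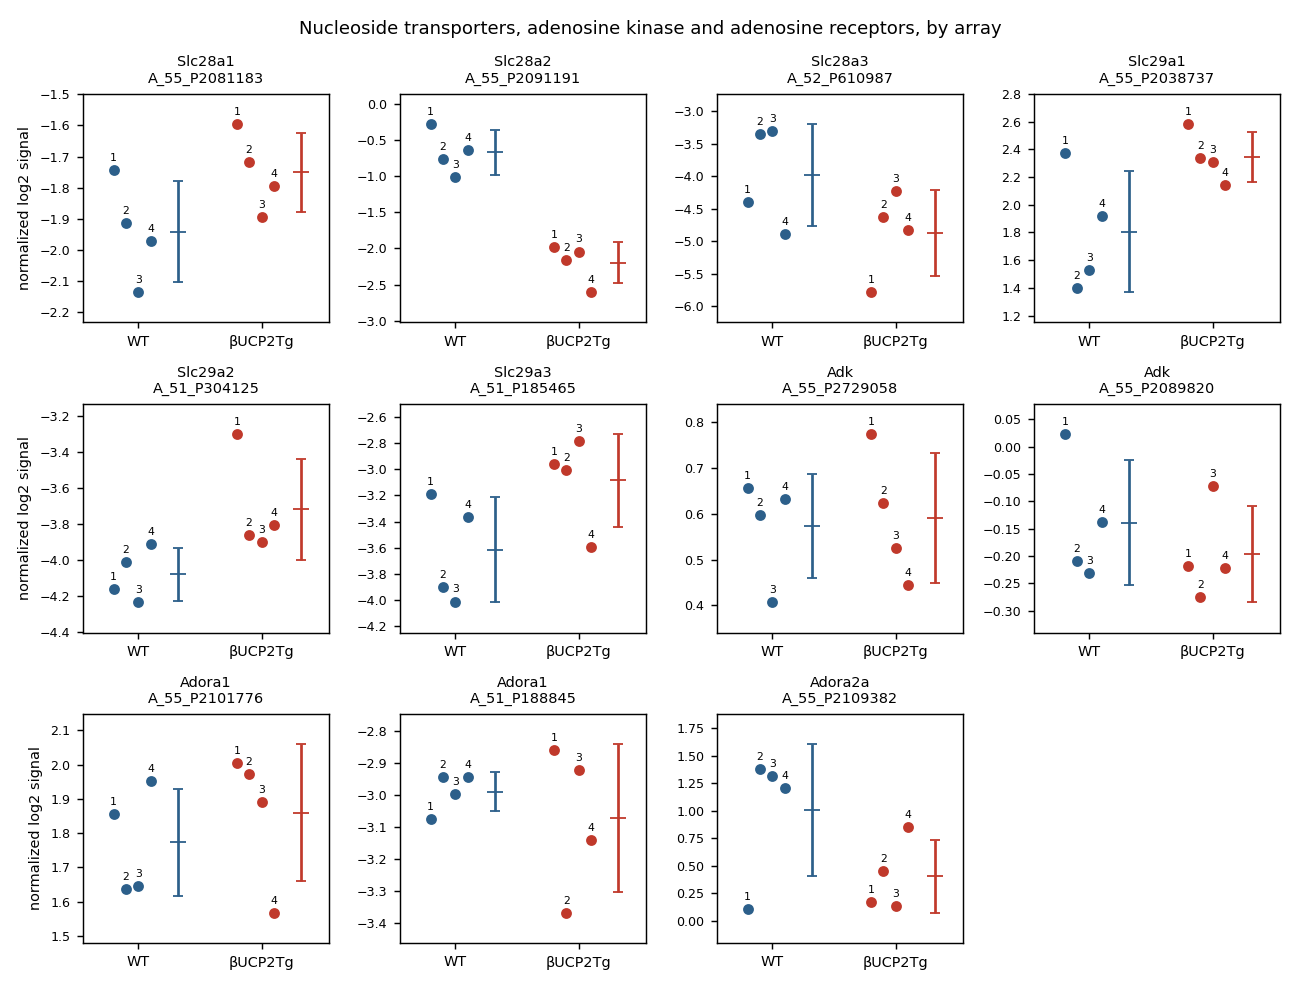
Normalized log2 signal (y axis, 0 at the 75th percentile of the array) of the 11 compared probes on the 4 WT arrays (blue) and the 4 βUCP2Tg arrays (red), with replicate numbers above the points and the mean ± SD of each group as a bar. *Slc28a2* shows a wide gap between the groups, *Slc29a2* a gap between -3.91 and -3.90, and in *Slc29a1* and *Adora2a* WT replicate 1 lies among the βUCP2Tg arrays.

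Among the concentrative transporters, *Slc28a2* was lower in βUCP2Tg islets and *Slc28a1* lay close in both groups. *Slc28a2* encodes CNT2, which prefers purine nucleosides such as adenosine and inosine. Its probe read -1.98, -2.16, -2.04 and -2.60 in βUCP2Tg replicates 1 to 4, and -0.28, -0.77, -1.01 and -0.63 in WT replicates 1 to 4. Every βUCP2Tg array was below every WT array, with almost a whole log2 unit between the nearest arrays of the groups. The means were -2.20 ± 0.28 and -0.67 ± 0.31 (SD, n = 4 each), a log2 fold change of -1.53 ± 0.19 (SE), or a 2.88-fold lower signal in βUCP2Tg islets. By size this difference ranked 16 among the 72 probes called lower. The call was kept in 7 of 10 other ways of processing, and was lost without a filter on dim probes, with the methods' t-test and with the replicate number as a block.

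Leaving out single arrays moved the *Slc28a2* difference little and the call a great deal. The log2 fold change lay between -1.64 and -1.39 over the 8 fits that each lacked 1 array. The probe was called in 2 of these fits, without WT replicate 1 and without βUCP2Tg replicate 4 (-1.39 in each). It missed the call without βUCP2Tg replicate 1 (-1.60), 2 (-1.54) or 3 (-1.58) and without WT replicate 2 (-1.56), 3 (-1.64) or 4 (-1.51). On the whole array, 1972 and 1118 probes were called lower in the first 2 fits, and 0 to 6 in the others. With both WT replicate 1 and βUCP2Tg replicate 4 left out, a setting added after the data were seen, the *Slc28a2* difference was -1.26 and called. In that setting 2310 probes were called higher and 3176 lower on the whole array.

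Next to *Slc28a2* in the RefSeq annotation (assembly GRCm38.p6) lies its close relative *Slc28a2b*, which the deposited table names *Gm14085* and which was taken up after its values had been seen. The first 30 of the 60 bases of the probes of both genes are printed to show how far the probes differ. They run 5′ to 3′ as the deposited expression table lists them, all in lower case because no stretch of them is marked.
*Slc28a2*, A_55_P2091191: gtgtaggagtggatgtgaggggagatattt
*Slc28a2b*, A_55_P2098971: acacaaatttcaccaataggacctatgaga
*Slc28a2b*, A_55_P2713695: acttatgccctcagtctcctgttcctcagt
Over the full 60 bases, the *Slc28a2* probe shared a run of at most 7 bases on the same strand with the first *Slc28a2b* probe and of at most 6 with the second. None of the probes of the 10 genes or of *Slc28a2b* shared 20 bases in a row, on either strand, with another probe of the array. Probe was set against probe here, and how far a transcript of one gene binds the probe of the other was not tested.

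The pair of *Slc28a2b* probes gave different values. A_55_P2098971 stood at -4.59, -5.05, -4.58 and -5.41 in βUCP2Tg islets and at -3.38, -3.77, -4.15 and -4.12 in WT islets, so that the groups did not overlap, as in *Slc28a2*. Its log2 fold change was -1.05 ± 0.24 (SE), which did not pass (limma adjusted p = 0.0823). It was called only without WT replicate 1 among the 8 fits that each lacked 1 array (log2 fold change -0.89, limma adjusted p = 0.0389, range over the 8 fits 0.0389 to 0.243). Without both WT replicate 1 and βUCP2Tg replicate 4 it was -0.73 and called (limma adjusted p = 0.0303), and with normexp background correction it was -0.46 and not called. A_55_P2713695 overlapped between the groups, with a log2 fold change of 0.06 ± 0.17 (SE, limma adjusted p = 0.839).

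Around *Slc28a2*, 10 protein-coding genes, 5 on each side, were looked up in that annotation, and 7 of them had a probe that could be compared. None of their 11 compared probes was called. Apart from *Slc28a2b*, their log2 fold changes ran from -0.31 to 0.55. The lower end was *Slc30a4*, a zinc transporter, whose groups did not overlap (-0.31 ± 0.09 SE, limma adjusted p = 0.102), and the upper end was 1 of the probes of the adaptor gene *Shf*. *Gatm*, the first enzyme of creatine synthesis, lies beyond *Slc28a2b* and gave 0.37 ± 0.21 and 0.45 ± 0.19 (SE) with its pair of probes.

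**Figure D2:**
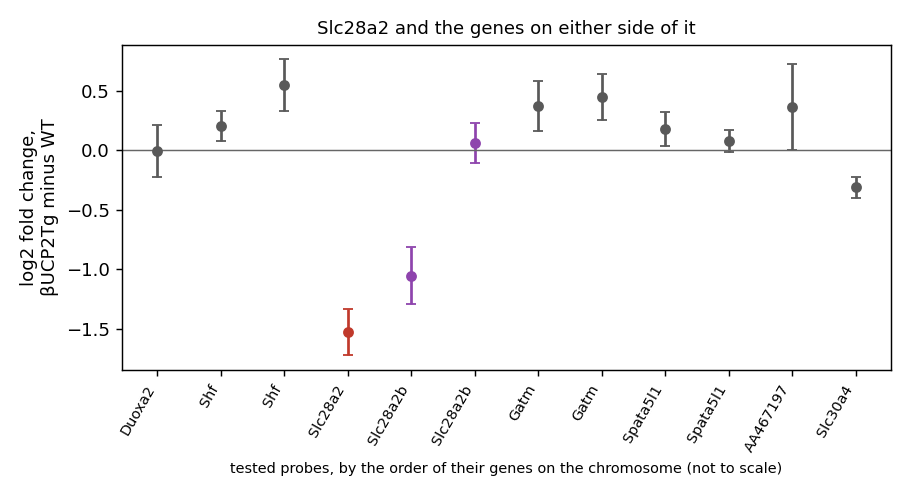
Log2 fold change of βUCP2Tg over WT islets (y axis, bars are standard errors) for each compared probe of *Slc28a2* (red), *Slc28a2b* (purple) and the other genes on either side (grey), in gene order and not to scale. *Slc28a2* at -1.53 and 1 *Slc28a2b* probe at -1.05 lie below the rest, which fall between -0.31 and 0.55.

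Across the arrays of a group, 4 probes of other genes that followed *Slc28a2* closely are named here. The likeness was the distance between the probes' deviations from their group means over the 8 arrays, scaled to unit length, with 0 for the same pattern and a median of 1.37 over the 35342 probes set against it. Nearest were *Nmnat1* at 0.0972, *Gm5176* at 0.102, *Maats1* at 0.120 and *Ica1l* at 0.125. A search over so many probes with 8 arrays yields small distances by itself, and how small was not tested. None of the 4 was called between the groups, and their log2 fold changes lay between -0.16 (*Ica1l*) and 0.48 (*Maats1*).

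*Slc28a1* encodes CNT1, which prefers pyrimidine nucleosides. Its brighter probe read -1.60, -1.72, -1.89 and -1.80 in βUCP2Tg islets and -1.74, -1.91, -2.13 and -1.97 in WT islets. The groups overlapped and the log2 fold change of 0.19 ± 0.11 (SE) was not called. The other *Slc28a1* probe was well above background on no array. *Slc28a3* encodes CNT3, which takes purines and pyrimidines alike. Only 1 of its 4 probes rose above background, on 3 βUCP2Tg arrays and all 4 WT arrays, at -5.78, -4.63, -4.22 and -4.83 against -4.40, -3.35, -3.30 and -4.89. WT replicate 4 was below 3 of the 4 βUCP2Tg arrays, so that the groups overlapped, and the log2 fold change of -0.88 ± 0.44 (SE) was not called.

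The equilibrative transporters had higher means in βUCP2Tg islets in all 3 genes, except that *Slc29a2* stood at -0.002 with normexp background correction, and none of them was called with all 8 arrays. *Slc29a1* encodes ENT1, the widespread plasma membrane carrier that is the target of nucleoside transport inhibitors such as dipyridamole. It read 2.58, 2.34, 2.31 and 2.14 in βUCP2Tg islets, and 2.37, 1.40, 1.53 and 1.92 in WT islets. WT replicate 1 lay among the βUCP2Tg arrays, and the other 3 WT arrays lay below all of them. The means were 2.34 ± 0.18 and 1.81 ± 0.44 (SD, n = 4 each), with a log2 fold change of 0.54 ± 0.21 (SE). Without WT replicate 1 the difference was 0.73 and was called, and with βUCP2Tg replicate 4 left out as well it was 0.79 and called.

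*Slc29a2* encodes ENT2, which also carries nucleobases. Its probe gave -3.30, -3.86, -3.90 and -3.81 in βUCP2Tg islets and -4.16, -4.01, -4.23 and -3.91 in WT islets. The groups did not overlap, but the nearest arrays, βUCP2Tg replicate 3 and WT replicate 4, differed only in the second decimal, and βUCP2Tg replicate 1 stood above the other 3. The log2 fold change was 0.36 ± 0.15 (SE). It was positive in 18 of 19 other settings and -0.002 with normexp background correction, where no difference was left. *Slc29a3* encodes ENT3, found mainly on intracellular membranes such as those of lysosomes. It read -2.96, -3.00, -2.78 and -3.59 in βUCP2Tg islets and -3.19, -3.90, -4.01 and -3.37 in WT islets. WT replicates 1 and 4 were above βUCP2Tg replicate 4, and the log2 fold change was 0.53 ± 0.24 (SE). It was called only when WT replicate 1 and βUCP2Tg replicate 4 were both left out (0.84), and the other *Slc29a3* probe was not above background on any array.

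*Adk*, which encodes the kinase that turns adenosine into AMP inside the cell, differed least between the groups. Its brighter probe lay at 0.77, 0.62, 0.53 and 0.44 in βUCP2Tg islets and at 0.66, 0.60, 0.41 and 0.63 in WT islets. Its log2 fold change was 0.02 ± 0.11 (SE), and the other probe gave -0.06 ± 0.10 (SE). On both probes the groups overlapped, and the sign of these small differences turned in some of the other settings. *Nt5e* could not be compared, since neither of its 2 probes was well above background on any array. The brighter of them read -5.64, -5.71, -5.79 and -5.31 in βUCP2Tg islets and -5.87, -7.69, -7.69 and -7.39 in WT islets, where the dimmest probe called well above background on each array lay between -6.10 and -5.46. No fold change is given for a gene not well above background in either group.

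*Adora1* encodes the A1 receptor, which couples to Gi and lowers cAMP. Its brightest probe read 2.01, 1.97, 1.89 and 1.57 in βUCP2Tg islets and 1.86, 1.64, 1.65 and 1.95 in WT islets. The highest and the lowest value both came from βUCP2Tg arrays, and the log2 fold change was 0.09 ± 0.13 (SE). A further *Adora1* probe gave -0.08 ± 0.12 (SE), and the last was not above background on any array. *Adora2a* encodes a Gs-coupled adenosine receptor, which raises cAMP. Its single probe stood at 0.17, 0.46, 0.14 and 0.85 in βUCP2Tg islets and at 0.11, 1.38, 1.32 and 1.21 in WT islets. WT replicate 1 was the lowest of all 8 arrays, while the other 3 WT arrays were above every βUCP2Tg array. The means were 0.40 ± 0.33 and 1.00 ± 0.60 (SD, n = 4 each), with a log2 fold change of -0.60 ± 0.30 (SE) that was not called. Without WT replicate 1 it was -0.90 and called, and without βUCP2Tg replicate 4 as well it was -1.05 and called.

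**Figure D3:**
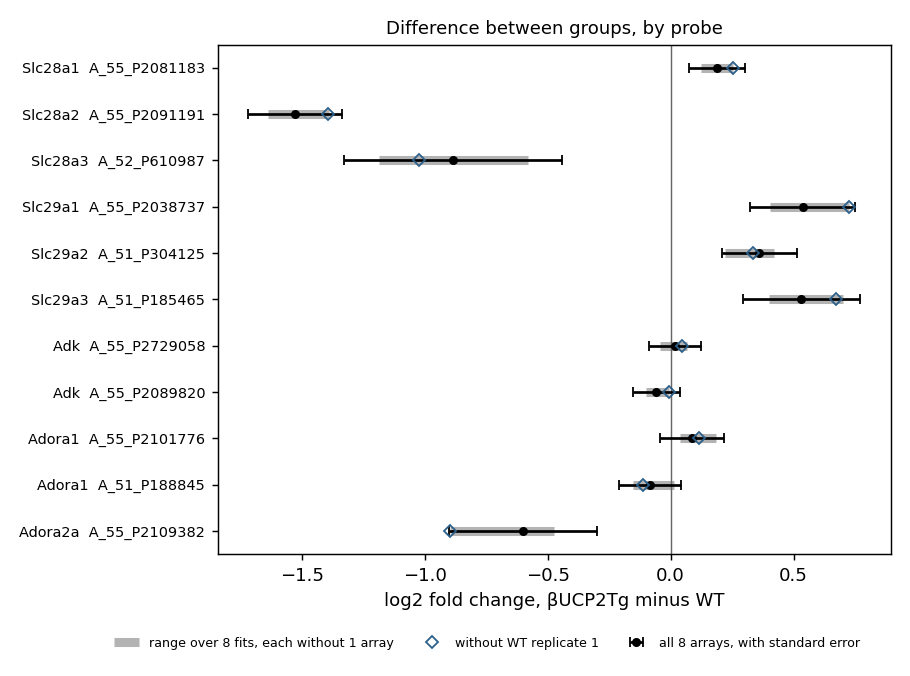
Log2 fold change of βUCP2Tg over WT islets (x axis) for the 11 compared probes, with all 8 arrays (black, bars are standard errors), over 8 fits that each lacked 1 array (grey band, lowest to highest) and without WT replicate 1 (blue diamonds). *Slc28a2* stays between -1.64 and -1.39, and *Slc29a1* and *Adora2a* reach their largest differences, 0.73 and -0.90, without WT replicate 1.

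*Slc28a1*, *Slc28a3*, *Adk* and *Adora1* were called in none of the fits that lacked 1 array or both WT replicate 1 and βUCP2Tg replicate 4. Without both arrays the log2 fold changes were 0.27 for *Slc28a1*, -1.03 for *Slc28a3*, 0.10 and 0.004 for the probes of *Adk*, and 0.21 and -0.09 for those of *Adora1*. With normexp the differences of *Slc28a1* (0.06), *Slc28a3* (-0.37) and *Slc29a3* (0.18) were smaller.

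Without WT replicate 1 the calls on the whole array rose to 3759 of 34786 probes, or 10.8%, with 5.14% called higher and 5.67% called lower, and 3 of the 10 genes were then called (*Slc28a2*, *Slc29a1* and *Adora2a*). The placing of WT replicate 1 seen in *Slc29a1* and *Adora2a*, where the other 3 WT arrays lay to one side of every βUCP2Tg array and it did not, was shared by *Slc28a1*, that is by 3 of the 11 probes and by 17.4% of all compared probes. *Slc28a2* was not among them, for WT replicate 1 had its highest value of all.

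The summed signal of hypoxia response genes moved with these arrays. Of the 17 genes listed, 16 were on the array and well above background on all 8. Their summed signal was 129 to 134 times the 75th percentile in βUCP2Tg replicates 1 to 3 and 247 times in βUCP2Tg replicate 4, and it was 193 times in WT replicate 1 and 338 to 360 times in WT replicates 2 to 4. None of the 16 was called, and their median log2 fold change was -1.22. *Ndrg1* (0.01 ± 0.12 SE) and *Pfkfb4* (0.16 ± 0.13 SE) were not lower in βUCP2Tg islets, and the rest had lower means. *Adora2a* was lowest where this sum was low, including WT replicate 1, and *Slc29a1* was lowest in WT replicates 2 and 3, where it was high. For *Slc28a2* the order was different, since WT replicate 1 had the highest *Slc28a2* signal and βUCP2Tg replicate 4 the lowest. The part of the hypoxia response genes in these differences was not tested.

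**Figure D4:**
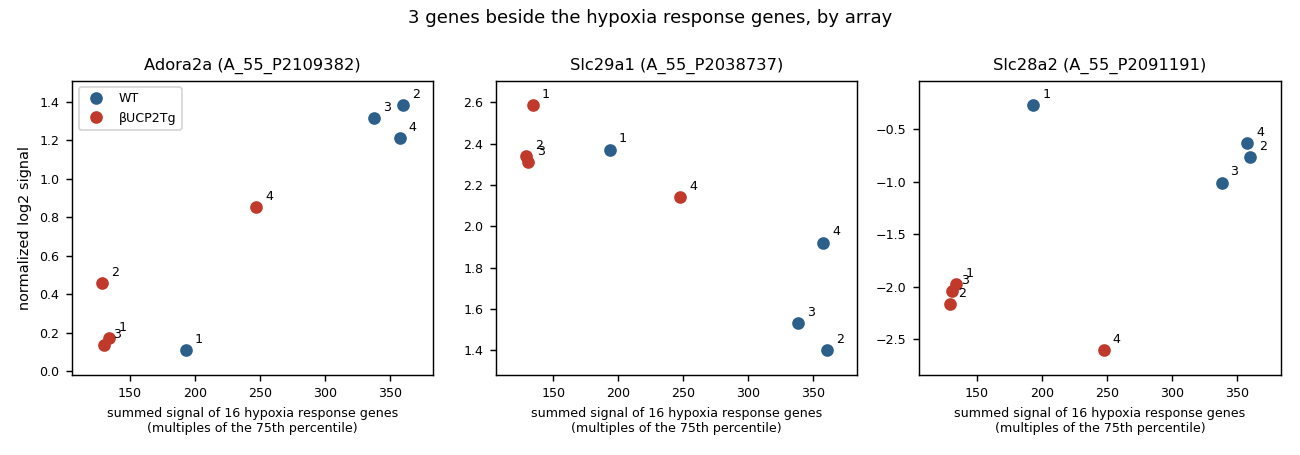
Normalized log2 signal of *Adora2a*, *Slc29a1* and *Slc28a2* (y axes) against the summed signal of 16 hypoxia response genes (x axis, in multiples of the 75th percentile) on the 4 WT arrays (blue) and the 4 βUCP2Tg arrays (red), with replicate numbers beside the points. WT replicate 1, at 193 on the x axis, lies level with the βUCP2Tg arrays in *Adora2a* and *Slc29a1* and above all other arrays in *Slc28a2*.

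Genes of other cells in an islet preparation were set beside these values too. Summed signal of 12 macrophage and leukocyte genes was 18.4 to 22.9 times the 75th percentile in βUCP2Tg islets and 24.6 to 30.2 times in WT islets, without overlap, and 11 of the 12 were well above background on all 8 arrays. Of the 11 compared, 1 was called lower, the lipopolysaccharide co-receptor *Cd14* (log2 fold change -2.10 ± 0.33 SE, limma adjusted p = 0.048), while *Adgre1* (-0.37 ± 0.35 SE), *Csf1r* (-0.56 ± 0.25 SE), *Cd68* (-0.88 ± 0.22 SE) and *Ptprc* (-0.45 ± 0.26 SE) were not called. The list did not move as a whole, since *C1qa* (0.66 ± 0.15 SE), *Fcgr1* (0.73 ± 0.30 SE) and *Lyz2* (0.09 ± 0.40 SE) had higher means in βUCP2Tg islets, also not called, and the other 8 had lower means. Summed signal of 25 acinar genes ranged from 21.2 to 339 in βUCP2Tg islets and from 34.4 to 545 in WT islets, with 22 of the 25 well above background on all arrays, *Ptf1a* on none, and none called. It was 214 on WT replicate 1 and 34.4 on WT replicate 4. The 24 compared acinar genes all had lower means in βUCP2Tg islets, with a median log2 fold change of -1.74. Sums of the other islet hormone and endocrine genes (803 to 1013 against 700 to 839), ductal (34.6 to 41.4 against 25.1 to 59.8), endothelial (24.2 to 29.2 against 25.3 to 31.4) and stromal genes (8.31 to 10.1 against 6.96 to 12.8) overlapped between the groups, with none called. Whether any of these cells had a part in the differences of the transporters and receptors was not tested.

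The wider pathway was followed in 3 lists of other genes, of which 56 of 66 had a probe that could be compared. Among their 104 probes 2 were called with a higher signal in βUCP2Tg islets and 0 with a lower one, or 1.92%, beside 0.41% of all compared probes. The median log2 fold change of the 56 genes was 0.12, beside 0.03 over all genes, with 34 genes positive and 22 negative. Groups did not overlap for 14 of the 104 probes, beside 12.4% of all compared probes. Without WT replicate 1, 11 of the 104 probes were called higher and 3 lower, where 10.8% of all compared probes were called, 5.14% higher and 5.67% lower.

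*P2ry14* was the called gene among the receptors for extracellular nucleotides, with 10 of 15 genes compared and 1 of 16 probes called. It encodes a Gi-coupled receptor for UDP-glucose and related nucleotide sugars. Its called probe read -1.11, -0.87, -1.25 and -1.39 in βUCP2Tg islets and -2.26, -3.05, -3.09 and -3.06 in WT islets. Every βUCP2Tg array was above every WT array, and WT replicate 1 stood above the other WT arrays. The log2 fold change was 1.71 ± 0.21 (SE), a 3.27-fold higher signal (limma adjusted p = 0.0298). The other *P2ry14* probe also had groups that did not overlap, at 1.77 ± 0.36 (SE), but did not pass with all 8 arrays (limma adjusted p = 0.0686). It was called without WT replicate 1 (2.05) and without βUCP2Tg replicate 4 (1.84), with limma adjusted p from 0.0150 to 0.225 over the 8 fits that each lacked 1 array, and with normexp its difference was 0.39 and not called. The call of the first probe was kept in 7 of 10 other ways of processing, among them normexp, where the difference was smaller (1.08). Of the 8 fits that each lacked 1 array it was kept without WT replicate 1 (1.91, limma adjusted p = 0.00237) and without βUCP2Tg replicate 4 (1.79, limma adjusted p = 0.0202), with 0.00237 to 0.127 over the 8. By the brightest probe of each gene, *P2ry12*, the ADP receptor of platelets and microglia (1.02 ± 0.33 SE, limma adjusted p = 0.123), and *P2rx3*, an ATP-gated channel of sensory neurons (0.44 ± 0.24 SE, limma adjusted p = 0.285), came next in size and were not called with all 8 arrays. Without WT replicate 1 both were called, *P2ry12* at 1.25 (limma adjusted p = 0.0360, range over the 8 fits 0.0360 to 0.282) and *P2rx3* at 0.70 (limma adjusted p = 0.0180, range 0.0180 to 0.469). With normexp the differences were 0.24 for *P2ry12* and 0.15 for *P2rx3*, neither called. A dimmer *P2rx3* probe, A_51_P116326, gave 0.10 ± 0.20 (SE, limma adjusted p = 0.781). It was not called without WT replicate 1 either (0.28, limma adjusted p = 0.255).

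*Upp2*, a uridine phosphorylase that splits uridine into uracil and ribose-1-phosphate, was the called gene among the enzymes of nucleoside metabolism inside the cell, where 31 of 34 genes were compared and 1 of 62 probes was called. The called probe A_55_P2051159 read -3.40, -2.32, -2.47 and -3.57 in βUCP2Tg islets and -4.98, -5.25, -4.77 and -5.82 in WT islets. The groups did not overlap, and 3 of the 4 WT arrays were well above background. The log2 fold change was 2.27 ± 0.34 (SE), a 4.82-fold higher signal (limma adjusted p = 0.0456). Among the 8 fits that each lacked 1 array it was called without WT replicate 1 (2.34, limma adjusted p = 0.0163) and without βUCP2Tg replicate 4 (2.48, limma adjusted p = 0.0218), with adjusted p from 0.0163 to 0.183 over the 8. It was called in 5 of the 9 other ways of processing in which it could be fitted, and with normexp the difference was 0.64. The probes of this gene differed. A_52_P259817 was compared because of its signal on the 4 βUCP2Tg arrays, since only 1 WT array showed it well above background, and no difference is given for it. The brightest, A_66_P121989, gave 0.44 ± 0.30 (SE, limma adjusted p = 0.377) with overlapping groups, and was called only without both WT replicate 1 and βUCP2Tg replicate 4 (0.74, limma adjusted p = 0.0491). By the brightest probe of each gene, the largest differences in this list were those of the other uridine phosphorylase *Upp1* (-0.67 ± 0.38 SE, limma adjusted p = 0.307), of guanine deaminase *Gda* (0.62 ± 0.11 SE, limma adjusted p = 0.0535, groups not overlapping) and of cytidine deaminase *Cda* (0.58 ± 0.21 SE, limma adjusted p = 0.138), none of them called with all 8 arrays. Without WT replicate 1, *Gda* (0.61, limma adjusted p = 0.0229, range over the 8 fits 0.0229 to 0.191) and *Cda* (0.71, limma adjusted p = 0.0499, range 0.0499 to 0.316) were called and *Upp1* was not. Without βUCP2Tg replicate 4 as well, *Upp1* was -1.20 and called (limma adjusted p = 0.0237). *Gda* was also called with a filter at all 8 arrays (limma adjusted p = 0.0426).

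**Figure D5:**
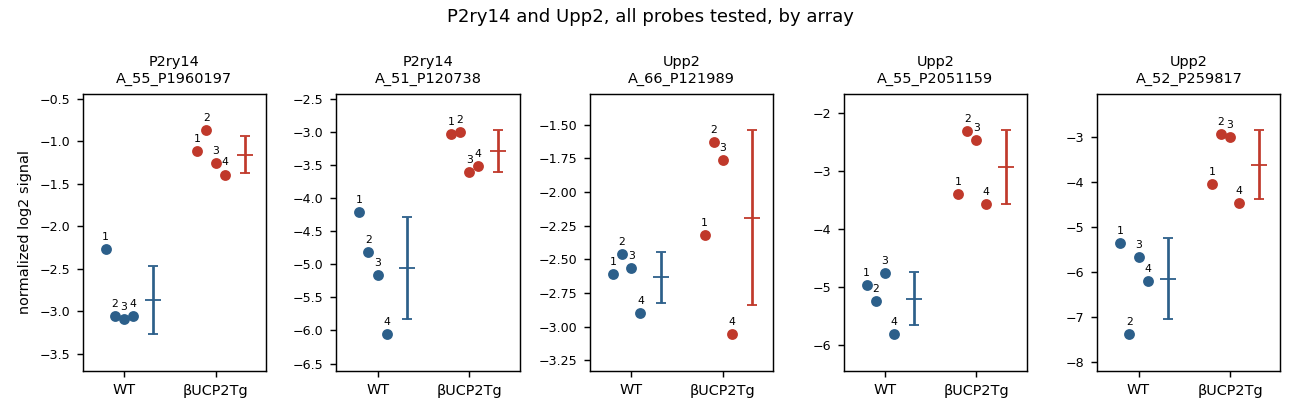
Normalized log2 signal (y axes) of all compared probes of *P2ry14* (2 probes) and *Upp2* (3 probes) on the 4 WT arrays (blue) and the 4 βUCP2Tg arrays (red), with replicate numbers above the points and the mean ± SD of each group as a bar. Groups are apart on both *P2ry14* probes and on A_55_P2051159 of *Upp2* and overlap on A_66_P121989, and A_52_P259817 was well above background on only 1 WT array.

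With all 8 arrays no probe was called among the genes that produce, break down or carry adenosine and nucleotides outside the cell. On the whole array 0.41% of compared probes were called. In this list 15 of 17 genes and 26 probes were compared, with a median log2 fold change of -0.02. Groups did not overlap for 3 of the 26 probes, beside 12.4% of all compared probes. By the brightest probe of each gene, the largest differences were those of *Enpp3*, an ectonucleotide pyrophosphatase (0.77 ± 0.24 SE, limma adjusted p = 0.116), of *Slc29a4* (0.54 ± 0.15 SE, limma adjusted p = 0.103) and of the gap junction gene *Gja1* (-0.52 ± 0.28 SE, limma adjusted p = 0.274). A dimmer probe of the vesicular nucleotide transporter *Slc17a9*, A_51_P340978, is named after its values were seen. Its groups did not overlap (-0.54 ± 0.12 SE, limma adjusted p = 0.0823), while the brighter *Slc17a9* probe gave -0.03 ± 0.10 (SE). *Gja1* was called lower without WT replicate 1 (-0.81, limma adjusted p = 0.0187, range over the 8 fits 0.0187 to 0.498), and *Enpp3* was not called in any of those fits and was 0.045 with normexp. *Slc29a4* encodes PMAT, the fourth SLC29 carrier, which moves monoamines and, at acidic pH, adenosine. It stood at 2.94 ± 0.07 in βUCP2Tg islets and 2.40 ± 0.31 in WT islets (SD, n = 4 each) with groups that did not overlap, and it was called without WT replicate 1 (0.64, limma adjusted p = 0.0276, range over the 8 fits 0.0276 to 0.265). All 4 SLC29 genes had a higher mean in βUCP2Tg islets, with normexp as the exception for *Slc29a2*, and with all 8 arrays none of them was called.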

How the data were processed

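Agilent SurePrint one-colour arrays of 4 βUCP2Tg and 4 WT islet samples were used. The deposited scanner files give each spot's background-subtracted linear intensity, from Feature Extraction (10.7.3.1 in the file headers, 9.1 in the submitters' processing notes), without scaling between arrays. The authors' GeneSpring table holds normalized log2 values, which served as an alternative and moved the differences of the listed genes by at most 0.0170. Its columns of fold change and p-values were not used.

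Outlier-flagged and control spots were left out. The 75th percentile of each array (8.78 to 8.89 in WT, 9.00 to 9.16 in βUCP2Tg, log2) was subtracted and spots of a probe were averaged. Between 33191 and 36320 probes per array were well above background, and no spot of the 10 genes was saturated. The number of arrays limits the precision. Groups were compared with limma 3.58.1 (lmFit, eBayes) in R 4.3.3 and Benjamini-Hochberg adjustment over all compared probes, after a check on simulated data.

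The genes, lists and marker genes were chosen with earlier results of these data known. Named were all listed genes, every called probe and the 3 genes with the largest difference of each list, and the 5 probes most like *Slc28a2*, of which 1 is not reported here. Alternatives were other filters on dim probes, scalings, background correction, the deposited values, Student's t-test, no fold limit, the replicate block and leaving out arrays. Student's t-test used the pooled variance of each probe, without moderation, and kept the Benjamini-Hochberg adjustment. RefSeq names are of GRCm38.p6, while the file headers give mm9, so that no coordinates are given.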

Additional observations from a re-analysis of the deposited data

Results flagged for a closer look

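In 38 groups of 4 arrays, each a gene or marker sum in 1 genotype, the gap between an end array and its nearest neighbour was set against the whole range. The gap passed Dixon's 95% limit in 5 groups, where chance alone would give 1.9. For *Slc29a2* in βUCP2Tg islets the ratio was 0.843, with replicate 1 at -3.30 above the others at -3.90 to -3.81. For *Adora2a* in WT islets it was 0.866, with replicate 1 at 0.11 below the others at 1.21 to 1.38. Summed signal of the hypoxia response genes gave 0.867 in WT islets, from replicate 1, and 0.955 in βUCP2Tg islets, from replicate 4. Summed signal of the acinar genes gave 0.888 in βUCP2Tg islets, where replicate 4 stood at 339 and the others at 21.2 to 56.9.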

How the results depend on the processing

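Over all settings the log2 fold changes of the 11 probes gave 208 values. Of these, 206 moved by less than the spread between replicates, and none of the called ones changed sign. The others were *Slc28a2* (-1.08) and *Slc29a2* (-0.002), both with normexp background correction. The 206 include values that could not move. The filters on dim probes, Student's t-test, no fold limit and the replicate block change the call but not the fold change. Differences near 0 changed sign in 2 and 1 of 19 settings for the probes of *Adk* and in 1 for the dimmer *Adora1* probe. Calls moved more. Probes called higher and lower on the whole array were 73 and 72. They became 18 and 3 with no filter on dim probes, 17 and 9 with Student's t-test, 13 and 1 with the replicate block and 231 and 585 with normexp. Those called lower became 138 with a filter at all 8 arrays and 23 with the percentile taken over probes measured on all arrays. With no filter, with Student's t-test and with the replicate block, the probes of the 10 genes called lower fell from 1 to 0. Those of the other adenosine and nucleoside genes called higher fell from 2 to 0, and were 1 with the percentile over probes measured on all arrays.

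Without 1 array at a time, probes called higher ranged from 8 to 1787 and lower from 0 to 1972, with the highest counts without WT replicate 1 and the next highest (349 and 1118) without βUCP2Tg replicate 4. For the 10 genes the ranges were 0 to 1 higher and 0 to 2 lower, and for the other adenosine and nucleoside genes 0 to 11 and 0 to 3. Without both arrays, a setting chosen after seeing the data, 2310 and 3176 probes were called. Among them were 2 and 2 of the probes of the 10 genes, and 12 and 5 of the probes of the other genes. Against 73 and 72 with all 8 arrays, the rise ran through the whole array. The number of probes compared in this setting is not given here, and neither is a share. The cause of these shifts was not tested.

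The labels do not say whether same-numbered samples were paired, and 4 correlations cannot settle it. Deviations of same-numbered arrays from their group means correlated at 0.44, -0.05, -0.01 and -0.24, and 1 of the 4 βUCP2Tg arrays correlated best with the WT array of its own number. Probes not well above background, *Nt5e* among them, allow no statement on a difference.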
